A study of Mus musculus with 56 samples.

Results

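The 7 genes described here, Il17a, Il17f, Il22, Il23r, Il1r1, Rora and Ahr, are mouse genes of the TH17 program: 3 cytokines, 2 cytokine receptors and 2 transcription factors. They were chosen by name from the 47937 genes of each of 2 count tables, and all 7 passed the filter on low counts in both tables (13839 genes tested for Odc and 13897 for Dohh). The data are bulk RNA-seq counts from naive CD4+ T cells of spleen and lymph node of C57BL/6 mice, cultured for 4 days towards TH1, TH2, TH17 or Treg cells. The labels say that other cell types were depleted with a kit before culture (negative selection). All cultures received anti-CD3 at 5 µg/mL, anti-CD28 at 2 µg/mL and IL-2 at 100 U/mL. TH17 cultures received IL-6 at 5 ng/mL, TGF-β at 5 ng/mL, IL-1β at 10 µg/mL as the labels give it, and antibodies to IFN-γ and IL-4 at 10 µg/mL each. TH1 cultures received IL-12 at 10 ng/mL, IL-2 at 10 ng/mL and anti-IL-4 at 4 µg/mL. TH2 cultures received IL-4 at 10 ng/mL, IL-2 at 10 ng/mL and anti-IFN-γ at 4 µg/mL. Treg cultures received TGF-β at 10 ng/mL, IL-2 at 10 ng/mL, and anti-IFN-γ and anti-IL-4 at 4 µg/mL each.

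The mice carried floxed alleles of Odc, the enzyme that makes the polyamine putrescine, or of Dohh, which completes the amino acid hypusine on a translation factor. Libraries labelled Odc-/- or Dohh-/- (KO) came from animals with CD4-Cre, a Cre driven by the Cd4 promoter that acts in all T cells passing the CD4-expressing stage in the thymus, and WT libraries from animals without Cre. The Odc table holds 16 WT and 15 Odc-/- libraries, with 4 per subset and genotype except 3 for Odc-/- TH2. The Dohh table holds 12 WT and 12 Dohh-/- libraries, 3 per subset and genotype, which the study calls biological replicates. Each table has its own WT libraries, and levels are compared within a table. The question of each comparison is how the levels of the TH17 genes differ between KO and WT libraries of a subset.

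IL-17A and IL-17F are secreted as homodimers or a heterodimer and act on epithelial and stromal cells, where they drive neutrophil recruitment and barrier defence. IL-22 acts on epithelia and is made by TH17 cells, other helper cells and innate lymphocytes. The program starts with IL-6 and TGF-β, is reinforced by IL-1 through its receptor Il1r1 and by IL-23 through Il23r, and is transcribed with the help of the nuclear receptor Rora and of Ahr, a ligand-activated receptor that is required for Il22 in many T cells. γδ T cells and innate lymphocytes can express the same genes.

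RefSeq promoter windows of GRCm38.p6 were found for 6 of the 7 genes. Il17a and Il17f are neighbours on chromosome 1, and 3 of the genes, Il17a, Il17f and Il23r, held the motif AGGTCA, the site bound by ROR factors, in the 250 bases before the start. Their windows are shown because the KO libraries set Il17a apart from Il17f (given further on). They are written 5′ to 3′ in the gene's direction with AGGTCA, or TGACCT where it lies on the other strand, in capitals.
Il17a, chr1:20730655-20730904 on the plus strand: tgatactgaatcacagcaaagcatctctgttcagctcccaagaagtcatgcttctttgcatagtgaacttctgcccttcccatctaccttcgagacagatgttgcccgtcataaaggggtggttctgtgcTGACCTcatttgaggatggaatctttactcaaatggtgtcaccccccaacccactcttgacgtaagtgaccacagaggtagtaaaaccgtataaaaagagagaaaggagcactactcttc
Il17f, chr1:20784271-20784494 on the minus strand: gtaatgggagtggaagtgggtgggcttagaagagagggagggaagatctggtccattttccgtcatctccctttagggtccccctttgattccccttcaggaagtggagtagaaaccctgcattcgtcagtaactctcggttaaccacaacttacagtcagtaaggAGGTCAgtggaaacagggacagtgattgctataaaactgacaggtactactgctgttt
Il23r, chr6:67491856-67492105 on the minus strand: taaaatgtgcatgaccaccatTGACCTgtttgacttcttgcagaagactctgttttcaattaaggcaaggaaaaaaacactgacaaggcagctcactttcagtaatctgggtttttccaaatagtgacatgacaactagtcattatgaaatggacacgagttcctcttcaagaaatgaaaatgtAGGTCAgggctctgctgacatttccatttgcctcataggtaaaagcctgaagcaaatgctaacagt
The first base of the match lies 120 bases before the start in Il17a, 58 in Il17f, and 229 and 66 in Il23r. Relative to the gene's direction, AGGTCA lies on the other strand in Il17a and on the same strand in Il17f. Since these genes lie on opposite strands, both matches are on the minus strand of chromosome 1. The Il17f window was shortened by 26 bases that belong to an exon of a longer Il17f transcript in GENCODE. AGGTCA on either strand occurs in 14% of the 32851 mouse promoter windows of the same length. The windows of Il22, Rora and Il1r1 held none. The AHR core GCGTG, present in 28.2% of all windows, occurred once in the Rora window and once in that of the second Il1r1 start. TGANTCA, a looser form of the AP-1 site that allows any middle base, was present in 6.75% of windows. It was found in Il17a, 244 bases before the start, with A as the middle base. TTCNNNGAA, the STAT site, in 7.02% of all windows, was in none of the 7 windows found.

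By GENCODE M21 on GRCm38, Il17a lies at chr1:20730905-20734496 on the plus strand and Il17f at chr1:20777146-20790617 on the minus strand, and Il1r1 lies further along at chr1:40225080-40317257 on the plus strand. Il23r lies at chr6:67422932-67491855 and Ahr at chr12:35497974-35535038, both on the minus strand. Rora lies at chr9:68653786-69388246 and Il22 at chr10:118204942-118210047, both on the plus strand. Il22 has a near-identical copy, Iltifb, on the minus strand of the same chromosome, with 1081 of 1110 aligned transcript bases identical (97.4%). Iltifb had at most 3 counts summed over any group, so reads that fit both copies could be missing from the Il22 counts, and Il22 levels are uncertain for that reason.

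The libraries held 5905374 to 9145214 counts (Odc table) and 6572148 to 12576933 (Dohh table), so that 3 counts, used as the floor, correspond to 0.310 to 0.499 and 0.226 to 0.473 CPM (counts scaled to a common library total). In TH17 libraries Odc1 was at 475 to 617 CPM in KO and 669 to 859 CPM in WT, but in TH1 libraries at 423 to 679 CPM in KO and 418 to 739 CPM in WT. Dohh was higher, not lower, in the libraries labelled Dohh-/-, at 45.2 to 65.5 CPM against 35.0 to 45.8 CPM in TH17. Gene-level counts include exons outside the deleted part and do not show the deletion, so the genotypes are used as labelled. The cultures differed in other cell markers. Among 8 γδ T cell genes, 7 or 8 were higher in KO libraries in every comparison of both tables, and 6 of 6 basophil and mast cell genes were higher in all 8 comparisons. Cd4 was at 40.2 to 79.7 CPM in Dohh-/- TH17 libraries against 790 to 825 CPM in WT (log2 fold change -3.73), and Trac at 80.6 to 169 CPM against 486 to 523 CPM. These were the 2 of 5 T cell markers called lower in each Dohh-/- subset. Cd3e (-0.23), Cd3g (0.71) and Lck (-0.13) were not called in TH17 cells, and the sum of the 5 was 1254 to 2018 CPM against 2547 to 2558 CPM. It was also lower in the other Dohh-/- subsets, as given with their results. For Odc-/-, 2 of the 5 were called lower in TH2 cells, where the sum was 1112 to 1273 CPM against 1878 to 2113 CPM. None was called in the other subsets, but in TH1 cells the sum was also lower without overlap, at 1561 to 1952 CPM against 2226 to 2741 CPM (median log2 fold change of the 5 -0.74), where the ranges of 43.3% of all genes did not overlap. In Odc-/- TH17 libraries Cd4 was at 272 to 570 CPM against 441 to 768 CPM in WT. In bulk RNA, fewer cells of a type and less RNA per cell cannot be told apart, and this holds for every difference below.

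In WT cells, the cytokines Il17a and Il17f were higher in TH17 libraries than in any library of another subset of the same table. Il17a was at 327, 274, 412 and 340 CPM in the 4 WT TH17 libraries of the Odc table and at 37.8, 29.3 and 21.3 CPM in the 3 of the Dohh table. Il17f was at 1396, 1467, 1439 and 1502 CPM and at 217, 261 and 190 CPM. In the other WT subsets the highest Il17a value was 13.4 CPM and the highest Il17f value 40.8 CPM, both in the 4th TH2 library of the Odc table. Per kilobase of exon, Il17f led in TH17 cells with a mean of 718 CPM per kb (Odc table) and 110 (Dohh table), followed by Il17a with 289 and 25.2, Ahr with 36.6 and 15.7, Rora with 14.9 and 4.79, Il23r with 8.01 and 1.75, Il1r1 with 5.39 and 0.977 and Il22 with 1.64 and 0.139. The order of the 7 genes per length was thus the same in both tables.

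The order of the WT subsets differed by gene. Il17f went from TH17 to TH2, Treg and TH1 with no overlap between neighbours in either table. Il17a had the order TH17, TH2, TH1 and Treg, where TH1 and Treg overlapped in the Odc table. Rora went from TH17 to Treg, TH1 and TH2, with Treg and TH1 overlapping in the Odc table, and Ahr from TH17 to TH2, Treg and TH1, with Treg and TH1 overlapping in the Dohh table. Il1r1 was highest in TH17 and lowest in Treg libraries, and TH1 and TH2 overlapped between them. Il23r was shared between TH17 and TH1 cells of the Odc table, where WT TH1 libraries held 15.2, 15.1, 12.9 and 19.5 CPM and WT TH17 libraries 21.7, 20.6, 19.8 and 17.8 CPM, and these ranges overlap. In the Dohh table Il23r was higher in TH1 (13.2, 9.36 and 9.52 CPM) than in TH17 (4.36, 4.58 and 4.15 CPM). Il22 was not highest in TH17 cells. It was at 2.20, 0.702, 1.69 and 2.67 CPM in WT TH17 libraries of the Odc table, and at 0, 0 and 0.462 CPM in those of the Dohh table, where the zeros lie under the floor of 3 counts, while WT TH2 libraries held 3.18, 4.8, 2.40 and 26.9 CPM and 2.47, 2.85 and 1.46 CPM.

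**Figure D1:**
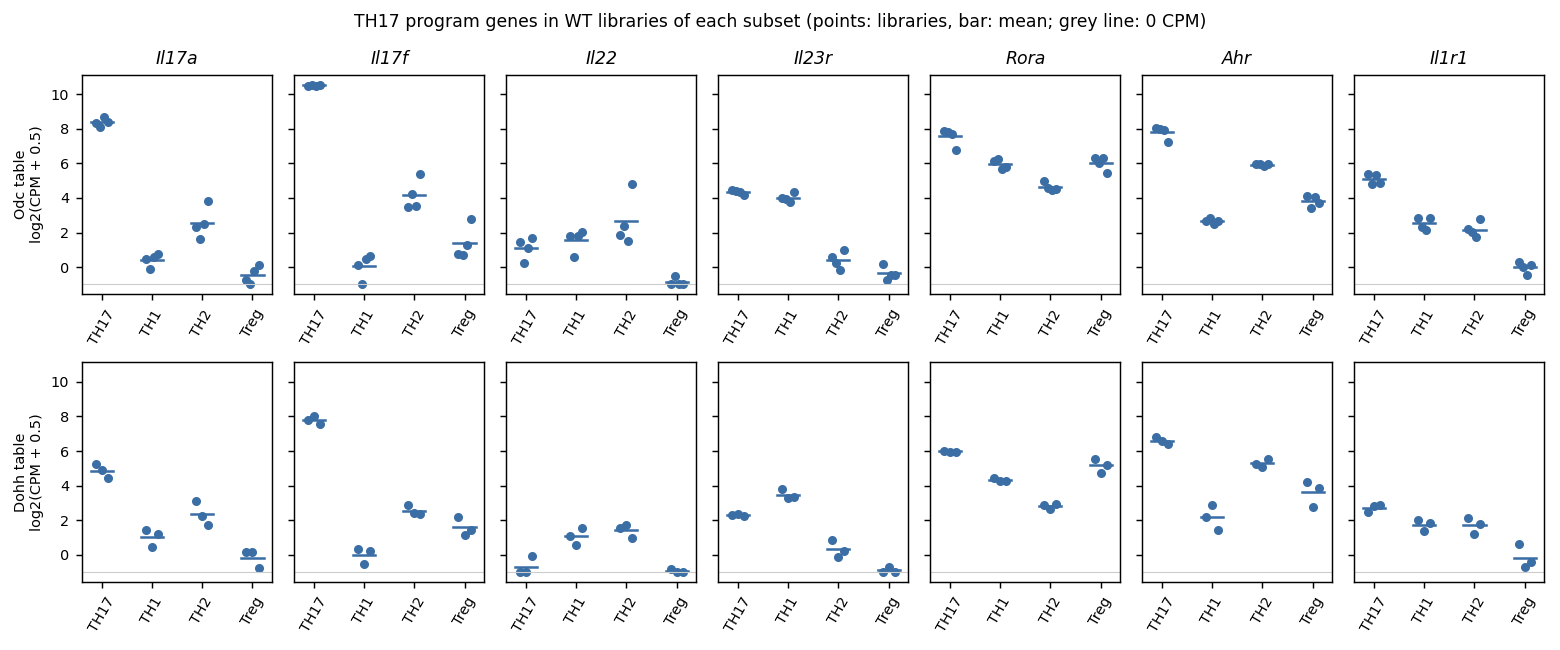
Level of each of the 7 genes in WT libraries, as log2(CPM + 0.5), by subset (columns of points) and by table (rows), with 1 point per library, a bar at the mean and a grey line at 0 CPM. Il17a and Il17f stand far above the other subsets in TH17 libraries (Il17f 1396 to 1502 CPM in the Odc table), whereas Il22 does not. Il23r is shared between TH17 and TH1 in the Odc table and is higher in TH1 in the Dohh table.

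Tested with edgeR's quasi-likelihood test (called: more than 2-fold and Benjamini-Hochberg adjusted p below 0.05), 5 of the 7 genes were higher in WT TH17 than in WT TH1 libraries of the Odc table, against 6.39% of all genes higher and 8.53% lower. The 2 not called were Il23r (log2 0.35, adjusted p = 0.363) and Il22 (log2 -0.54, adjusted p = 0.581). Against TH2, 6 were higher and Il22 was lower (7.55% of all genes higher, 9.95% lower), and against Treg all 7 were higher (7.23% higher, 6.80% lower), with Il22 at 2 counts in all over the WT Treg libraries. The lower Il22 level against TH2, log2 -2.33, rested on 1 library: without the 4th WT TH2 library it was -0.92 and not called. The largest differences against TH1 were those of Il17f (log2 11.17), Il17a (8.58) and Ahr (5.26). Those of Il17f and Il17a rest on 17 and 24 counts in all over the WT TH1 libraries, so their size is uncertain. Among WT libraries of the Dohh table, 4 genes were higher and 2 lower against TH1 (5.91% and 6.51% of all genes), 5 higher and 1 lower against TH2 (6.81% and 6.89%), and 5 higher against Treg (3.85%, with 3.22% lower). There, Il23r was lower than in TH1 (log2 -1.29, adjusted p = 0.0216) and Il22 was lower than in TH1 (-3.57, adjusted p = 0.0103) and in TH2 (-3.99, adjusted p = 0.00332). Ahr was higher than in TH2 (1.32, adjusted p = 0.0211). Calls near the threshold depended on single libraries. Il23r against TH1 was not called without any 1 of the WT TH17 libraries or WT TH1 replicate 1 (-1.10 to -1.32), Il22 against TH1 without WT TH17 replicate 1 or 2 (-2.90 and -3.02), and Ahr against TH2 without WT TH17 or WT TH2 replicate 1 or 2 (1.21 to 1.34) or without a filter on low counts (1.30). Rora was not called against Treg (0.78, adjusted p = 0.125). Il1r1 was not called against TH1 (1.09, adjusted p = 0.0568) or TH2 (1.09, adjusted p = 0.0528), but was with the replicate number as a block (1.18, adjusted p = 0.0242, and 1.20, adjusted p = 0.0211), and against TH2 also without WT TH2 replicate 1 (1.4). DESeq2 and a fit of only the groups compared called it against both. All comparisons of a table share its WT TH17 libraries. Subset markers followed the labels: Ifng was lower in WT TH17 than in WT TH1 by log2 -6.34 (Odc table) and -6.64 (Dohh table), Il4 lower than in TH2 by -5.21 and -6.25, and Foxp3 lower than in Treg by -4.79 and -3.69.

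In TH17 cells labelled Odc-/-, 4 of the 7 genes fell and 1 rose, beside 7.21% of all genes that fell and 8.35% that rose. Il17a, the signature cytokine, was at 140, 56.3, 154 and 75.4 CPM in the 4 Odc-/- libraries, all below the WT libraries with 274 to 412 CPM (log2 fold change -1.67, SE 0.36, adjusted p = 0.000555). Il17f was at 833, 631, 945 and 585 CPM, also below all WT libraries (1396 to 1502 CPM), but its log2 fold change of -0.95 (SE 0.35, adjusted p = 0.0273) was short of the 2-fold limit. Without Odc-/- replicate 1 or 3 it passed, at -1.01 and -1.09.

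Il22 moved the other way. It was at 17.8, 10.2, 18.9 and 9.23 CPM in Odc-/- TH17 libraries against 2.20, 0.702, 1.69 and 2.67 CPM in WT, without overlap (log2 2.93, SE 0.64, adjusted p = 0.000644). Among the receptors, Il23r was at 11.0, 3.81, 6.15 and 3.38 CPM against 17.8 to 21.7 CPM in WT (log2 -1.71, SE 0.32, adjusted p = 0.000116). Il1r1, which binds the IL-1β added to these cultures, was at 15.8, 9.59, 16.6 and 11.8 CPM against 41.0, 27.9, 39.6 and 28.5 CPM (log2 -1.35, SE 0.28, adjusted p = 0.000419). Both receptors were thus lower in each Odc-/- library than in any WT library, beside 41.1% of all genes whose ranges did not overlap in this comparison.

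Of the transcription factors, Rora fell and Ahr did not pass. Rora was at 96.4, 72.2, 56.3 and 53.5 CPM against 236, 225, 210 and 111 CPM in WT (log2 -1.49, SE 0.27, adjusted p = 0.000106), without overlap although the 4th WT library was near the highest Odc-/- library. Ahr was at 130, 189, 149 and 166 CPM against 261, 252, 238 and 152 CPM (log2 -0.51, SE 0.18, adjusted p = 0.0242). The Ahr ranges overlap, again through the 4th WT library. The median log2 fold change of the 7 genes was -1.35, beside 0.05 over all genes tested.

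**Figure D2:**
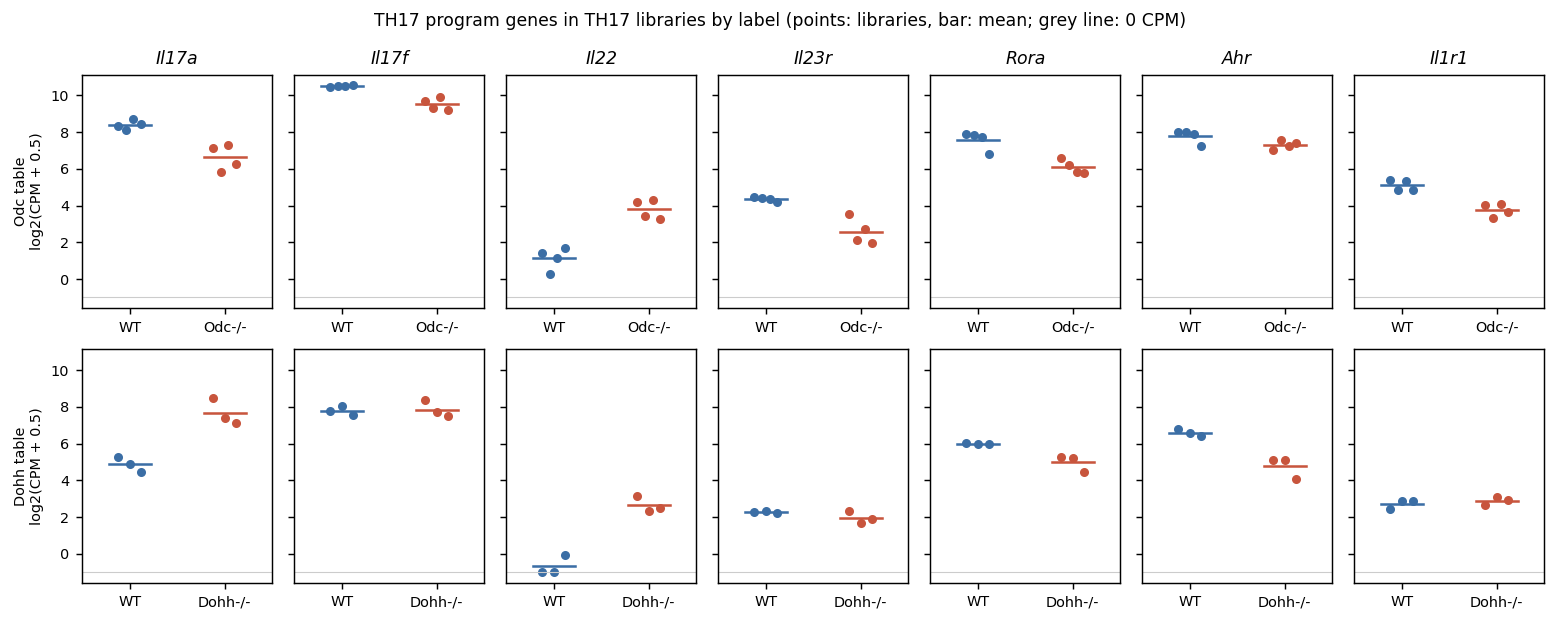
Level of each gene in TH17 libraries, as log2(CPM + 0.5), for WT (blue) and KO libraries (red) of both tables (rows), with 1 point per library and a bar at the mean. Il17a is lower in the Odc-/- libraries (56.3 to 154 CPM against 274 to 412 CPM) and higher in the Dohh-/- libraries (140 to 360 CPM against 21.3 to 37.8 CPM), and Il22 is higher in both.

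Rora was the only one of the 7 genes called lower in all 4 subsets labelled Odc-/-. In TH1 libraries it was at 33.8, 24.2, 28.4 and 22.4 CPM against 49.9 to 74.4 CPM in WT (log2 -1.20, SE 0.28, adjusted p = 0.000793), in TH2 at 5.96, 10.8 and 9.03 CPM against 21.1 to 30.4 CPM (-1.5, SE 0.34, adjusted p = 0.000541), and in Treg at 15.8, 36.3, 13.7 and 32.7 CPM against 42.4 to 79.9 CPM (-1.42, SE 0.28, adjusted p = 0.000108). None of these ranges overlap, beside 43.3%, 61.1% and 45.8% of all genes without overlap in TH1, TH2 and Treg cells.

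In TH1 cells labelled Odc-/-, 1 of the 7 genes rose and 3 fell (10.2% and 11.3% of all genes), in libraries where the T cell marker sum was lower as given above; its part in the result was not tested. Il22 was at 20.2, 32.4, 51.6 and 40.4 CPM, above the 0.995 to 3.55 CPM of WT TH1 libraries (log2 3.76, SE 0.62, adjusted p = 2.59e-05). Its mean here was the highest of any group in the Odc table, but the range overlaps those of Odc-/- and WT TH2 libraries. Il23r was at 3.02, 2.91, 5.48 and 2.94 CPM against 12.9 to 19.5 CPM in WT (-2.12, SE 0.34, adjusted p = 1.37e-05). Il1r1 was lower too, at 4.07, 1.19, 1.55 and 0.559 CPM against 3.91 to 6.80 CPM, with replicate 1 inside the WT range (-1.58, SE 0.37, adjusted p = 0.00077). With 1 library left out the value ranged from -2.31 to -1.28 and stayed called. Il17a and Il17f stayed at or below 5.73 CPM in all TH1 libraries of this table and were not called by edgeR (log2 1.5, adjusted p = 0.104, and 1.92, adjusted p = 0.0544). DESeq2 called both higher (1.51, adjusted p = 0.0386, and 1.93, adjusted p = 0.00692), and edgeR called Il17f with genes of a mean count of at least 50 (1.90, adjusted p = 0.0477). Ahr was not called (0.34, adjusted p = 0.257). Il17a passed without Odc-/- replicate 2 (1.85), and Il17f without replicate 3 (2.13) or 4 (2.18).

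In TH2 cells labelled Odc-/-, 4 genes fell and none rose (13.6% and 11.5% of all genes), in libraries where the T cell marker sum was also lower; its part in the result was not tested. Ahr, which WT TH2 cells held at 56.3 to 62.9 CPM, was at 12, 27.7 and 17 CPM (log2 -1.67, SE 0.22, adjusted p = 1.16e-06). Il17f was at 0.662, 2.04 and 1.29 CPM against 10.8, 18.4, 11.1 and 40.8 CPM (-3.89, SE 0.61, adjusted p = 1.04e-05), so that the low Il17f level of WT TH2 cells was almost lost. Il17a, at 0.529, 3.05 and 0.903 CPM against 4.40, 2.53, 5.07 and 13.4 CPM, had overlapping ranges (-2.04, SE 0.65, adjusted p = 0.00881), and the call was lost without Odc-/- replicate 2 (-1.65) or WT replicate 4 (-1.40). Il22 was at 5.29, 29.9 and 11.2 CPM against 3.18, 4.8, 2.40 and 26.9 CPM (0.75, adjusted p = 0.27), and without WT replicate 4 it passed at 2.16.

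In Treg cells labelled Odc-/-, 2 genes rose and 1 fell (13.9% and 10.1% of all genes). Ahr was at 43.3, 59.1, 46.2 and 46.5 CPM against 16.7, 10.1, 16.2 and 12.7 CPM (log2 1.81, SE 0.20, adjusted p = 4.55e-08), the opposite of its direction in TH2 cells. Il17a was at 2.90, 1.68, 2.71 and 1.04 CPM against 0.106, 0, 0.345 and 0.582 CPM (2.99, SE 0.96, adjusted p = 0.00918). This fitted value rests on 9 counts over the WT libraries. With 1 library left out it ranged from 2.57 to 3.71 and stayed called. Il17f was at 7.52, 4.21, 3.88 and 4.43 CPM against 1.16, 1.14, 1.96 and 6.52 CPM (0.92, adjusted p = 0.139), and passed at 1.82 without WT replicate 4. Il22 had 10 counts in the 4 Odc-/- Treg libraries and 2 in the 4 WT libraries, a ratio of 5.82 (95% counting interval 1.24 to 54.6), and was not called. Both WT counts came from replicate 2. Without it, the ratio of the Odc-/- counts to the floor of 3 counts over the WT group was 2.85, with no interval. Without any other 1 WT library the interval reached below 1 (lower ends 0.918 to 0.948). The median log2 fold change of the 7 genes was 0.34 in TH1, -1.5 in TH2 and 0.92 in Treg cells (0.31 with Il22 at the lower end of its interval), beside 0.02, 0.00 and 0.07 over all genes.

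In TH17 cells labelled Dohh-/-, 2 genes rose and 1 fell, beside 17.3% of all genes that rose and 14.1% that fell. Il17a was at 360, 165 and 140 CPM in the 3 Dohh-/- libraries and at 37.8, 29.3 and 21.3 CPM in WT (log2 2.90, SE 0.51, adjusted p = 0.000121). Il17f, its neighbour and dimer partner, was at 327, 210 and 178 CPM against 217, 261 and 190 CPM, and these ranges overlap (0.10, SE 0.40, adjusted p = 0.85). The 2 cytokines were thus not changed alike, with Il17a higher in every Dohh-/- library than in any WT library (61.9% of all genes did not overlap). Il22 was at 8.41, 4.58 and 5.13 CPM against 0, 0 and 0.462 CPM, where all WT reads came from 1 library with 4 counts (5.40, SE 0.89, adjusted p = 5.44e-05). The size of this fitted value thus depends on that library.

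The receptors did not differ detectably. Il23r was at 4.56, 2.73 and 3.17 CPM against 4.36, 4.58 and 4.15 CPM (log2 -0.32, SE 0.41, adjusted p = 0.522), and Il1r1 at 5.88, 8.03 and 7.10 CPM against 5.00, 6.73 and 6.92 CPM (0.18, SE 0.39, adjusted p = 0.726). Ahr was at 34.3, 34.0 and 16 CPM against 110, 95.8 and 83.9 CPM in WT (-1.77, SE 0.42, adjusted p = 0.00144). Rora was at 38.2, 36.7 and 21.3 CPM, below the WT libraries with 64.8, 61.2 and 61.9 CPM, but was not called (-0.96, SE 0.31, adjusted p = 0.0132). It was called without Dohh-/- replicate 1 (-1.11) or 2 (-1.06). Dohh-/- TH17 replicate 1 also stood apart in myeloid genes, with a summed level of 564 CPM against 8697 and 11463 CPM in replicates 2 and 3. Without it Il17a (2.36), Il22 (5.08) and Ahr (-1.94) kept their calls. It held the lowest myeloid sum of the Dohh-/- TH17 libraries, so leaving it out does not test the part of myeloid cells. The T cell marker sum was also lower in these libraries, as given above. The part of either in the result was not tested.

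In Treg cells labelled Dohh-/-, the most genes were called, with 6 of the 7 genes called higher and 1 lower (17.5% and 15.2% of all genes). The T cell marker sum was lower in these libraries, at 1310 to 1916 CPM against 2733 to 2997 CPM in WT. Dohh-/- replicate 1 stood apart in myeloid genes, with a sum of 339 CPM against 4306 and 4753 CPM in replicates 2 and 3. The part of either in the result was not tested. Il17a was at 76.8, 50.2 and 156 CPM against 0.602, 0.607 and 0.0851 CPM (log2 7.76, SE 0.75, adjusted p = 1.01e-07), above the Il17a level of WT TH17 cells of the same table. Il17f was at 46.5, 25.1 and 85.6 CPM against 4.14, 1.70 and 2.21 CPM (4.24, SE 0.49, adjusted p = 8.73e-07). Il22 had 315 counts in the Dohh-/- libraries (5.30, 3.33 and 24.1 CPM) and 1 in WT, a ratio of 365 (95% counting interval 65.1 to 14481). The ratios with 1 library left out were added after the data had been seen. Of the 315 counts, 234 came from Dohh-/- replicate 3, and without it the ratio was 142 (interval 24.8 to 5680). Without WT replicate 1, which held the only WT count, the ratio to the floor was 73.1. Without WT replicate 3 the ratio to WT was 236. No WT Treg library came near these values for any of the 3 cytokines, in a comparison where the ranges of 66.6% of all genes did not overlap.

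Among the receptors and factors in these Treg cells, Il23r had 12 counts against 1, a ratio of 13.9 (interval 2.06 to 595). The WT count came from replicate 2, without which the ratio to the floor was 3.49. The ratio to WT was 8.36 without WT replicate 1 and 9.01 without WT replicate 3. Il1r1 was at 1.43, 1.82 and 2.16 CPM against 1.05, 0.121 and 0.255 CPM (log2 1.79, SE 0.50, adjusted p = 0.00469). Of its 18 WT counts, 14 came from WT replicate 1, so the size of this difference depends on that library. Ahr was at 30.4, 33.2 and 21.1 CPM against 18.1, 6.20 and 14 CPM (1.13, SE 0.42, adjusted p = 0.0285). Its call was lost without Dohh-/- replicate 1 or 2, or WT replicate 2 or 3, with values of 0.76 to 1.14, and without a filter on low counts (1.12). Rora was the gene that fell, at 12.9, 7.87 and 7.42 CPM against 46.8, 26.0 and 36.7 CPM (-1.96, SE 0.33, adjusted p = 4.43e-05).

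In TH2 cells labelled Dohh-/-, 5 genes rose and 1 fell (14.3% and 11.6% of all genes). The T cell marker sum was lower in these libraries, at 968 to 1297 CPM against 2096 to 2333 CPM in WT. Their myeloid sum was 8.07 to 697 CPM, highest in replicate 2, against 0.658 to 1.48 CPM in WT. The part of either in the result was not tested. Il17a was at 97.7, 31.7 and 115 CPM against 8.22, 4.23 and 2.80 CPM (log2 3.97, SE 0.56, adjusted p = 1.61e-05), Il22 at 21.5, 23.5 and 46.9 CPM against 2.47, 2.85 and 1.46 CPM (3.75, SE 0.63, adjusted p = 7.82e-05), and Il23r at 11.1, 4.38 and 6.14 CPM against 1.32, 0.423 and 0.672 CPM (3.11, SE 0.46, adjusted p = 1.97e-05). All 3 were higher in each Dohh-/- library than in any WT library, in a comparison where 62.4% of all genes did not overlap. Il17f was at 24.1, 9.26 and 16.9 CPM against 6.91, 4.86 and 4.59 CPM (1.61, SE 0.45, adjusted p = 0.0072). Il1r1 was at 6.29, 10.2 and 7.10 CPM against 3.95, 1.80 and 2.91 CPM (1.43, SE 0.41, adjusted p = 0.00693), a call lost without WT replicate 2 (1.15). Ahr fell from 37.2, 33.3 and 45.8 CPM in WT to 5.03, 10.9 and 6.46 CPM (-2.37, SE 0.44, adjusted p = 0.000237), and Rora was not called (0.36, adjusted p = 0.405).

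In TH1 cells labelled Dohh-/-, 2 genes rose and none fell (14.8% and 14.2% of all genes). Here too the T cell marker sum was lower, at 1381 to 2034 CPM against 2519 to 2745 CPM in WT. Dohh-/- replicate 2 stood apart in myeloid genes, with a sum of 216 CPM against 2.25 and 2.76 CPM in replicates 1 and 3. The part of either in the result was not tested. Il17a was at 14.9, 8.67 and 13.9 CPM against 2.23, 0.896 and 1.79 CPM (log2 2.91, SE 0.62, adjusted p = 0.000746) and Il22 at 6.43, 7.25 and 8.05 CPM against 1.65, 0.995 and 2.47 CPM (2.09, SE 0.63, adjusted p = 0.00923). Il17f stayed at 1.74 CPM or below in all TH1 libraries of the table. Il23r, at 4.6, 3.94 and 9.37 CPM against 13.2, 9.36 and 9.52 CPM (-0.84, adjusted p = 0.0825), and Ahr, at 0.817, 1.26 and 3.97 CPM against 3.97, 6.87 and 2.24 CPM (-1.09, adjusted p = 0.0921), were not called, but both passed without Dohh-/- replicate 3 (-1.31 and -2.11), and Ahr also without WT replicate 3 (-1.39). Il17a and Il22 were therefore called higher in all 4 subsets labelled Dohh-/-. The median over the 7 genes was 0.10 in TH17, -0.07 in TH1, 1.61 in TH2 and 3.32 in Treg cells (1.79 with Il22 and Il23r at the lower ends of their intervals), beside 0.01, 0.01, 0.02 and 0.02 over all genes.

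**Figure D3:**
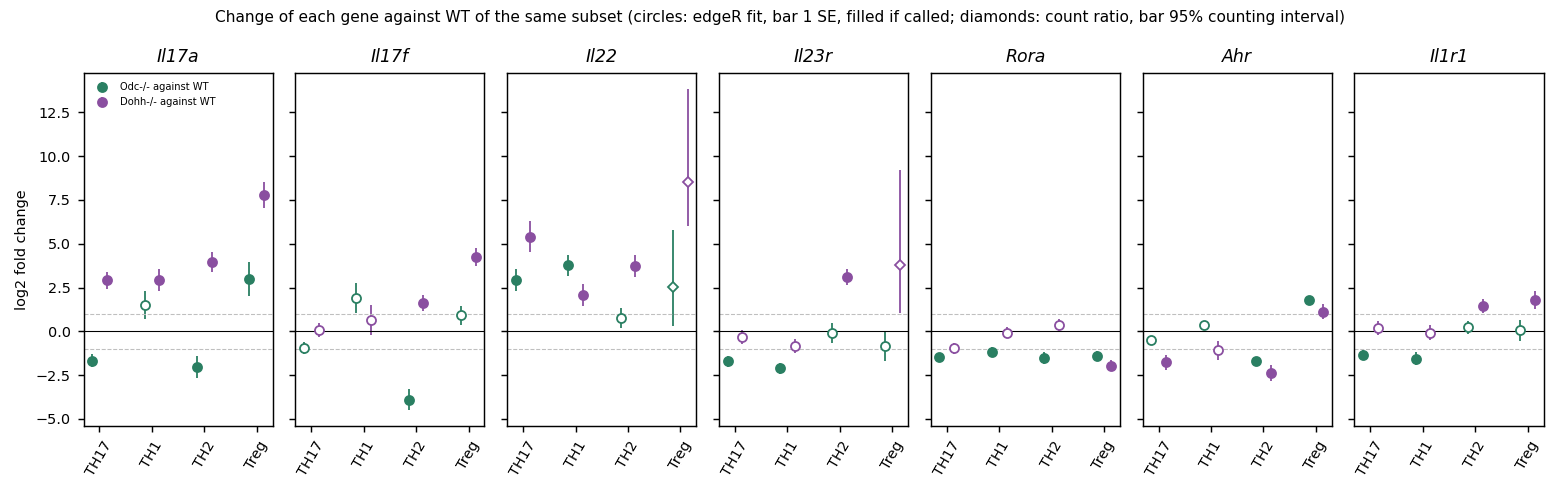
Log2 fold change of KO over WT in each subset, 1 panel per gene, with Odc in green and Dohh in purple; circles are the edgeR fit with a bar of 1 SE, filled where called, dashed lines mark 2-fold, and open diamonds are ratios of low counts with their 95% counting interval. Rora lies below 0 in all 4 subsets for Odc (-1.20 to -1.5), and Il17a lies above 0 in all 4 for Dohh (2.90 to 7.76).

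Whether the KO difference in TH17 cells was unlike that in another subset was tested with the interaction of genotype and subset (called: adjusted p below 0.05). For the Odc libraries, 2 of the 7 genes differed from TH1 (8.87% of all genes), Il17a by log2 -3.17 (adjusted p = 0.0187) and Il17f by -2.87 (adjusted p = 0.045). Without TH1 Odc-/- replicate 1 neither was called (-2.41 and -2.18), and the call of Il17f held with 1 library left out only when this was TH17 Odc-/- replicate 1 or 3, TH1 Odc-/- replicate 3 or 4, or TH1 WT replicate 4. Without TH17 WT replicate 4 Ahr passed instead of Il17f (-0.997). From TH2, 3 differed (20.8% of all genes): Ahr by 1.16 (adjusted p = 0.005), Il1r1 by -1.58 (adjusted p = 0.0147) and Il17f by 2.94 (adjusted p = 0.00524). With the replicate number as a block within genotype 5 did, the others being Il22 (2.15, adjusted p = 0.0195) and Il23r (-1.90, adjusted p = 0.0167). Unblocked, Il22 also passed without TH2 Odc-/- replicate 3 (3.09) or TH2 WT replicate 1 (2.48) or 3 (2.51), and Il23r without TH17 Odc-/- replicate 1 (-2.10) or TH2 WT replicate 4 (-1.96). From Treg, 2 differed (10.8%), Ahr by -2.32 (adjusted p = 2.6e-06) and Il17a by -4.66 (adjusted p = 0.00281), and the block added Il17f (-2.01, adjusted p = 0.00993, against -1.87, adjusted p = 0.0579, without it), which passed unblocked without Treg WT replicate 4 (-2.77). Ahr and Il17a thus each differed by subset in the Odc table, whereas Rora was not called in any of the 3.

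In the Dohh table no member differed between TH17 and TH1 with edgeR (6.95% of all genes). At an unadjusted p below 0.05, 1 did, Il22, which DESeq2 also called (log2 3.40) and which passed without TH17 WT replicate 3 (6.83, a fitted value against TH17 WT libraries with no Il22 count). From TH2, Il23r differed by -3.43 (adjusted p = 0.00117), 1 of 7 beside 7.45% of all genes. From Treg, 4 differed (6.09%): Ahr by -2.90 (adjusted p = 0.00406), Il17a by -4.86 (adjusted p = 0.00216), Il17f by -4.14 (adjusted p = 0.000329) and Il23r by -3.64 (adjusted p = 0.0345), the last a fitted value against WT Treg libraries with 1 count in all. This call of Il23r held with 1 library left out only when this was TH17 Dohh-/- replicate 1 or Treg WT replicate 2. Il1r1 passed without Treg WT replicate 1 (-2.88). Il17a rose in both subsets and more in Treg cells, Ahr rose in Treg and fell in TH17 cells, and Il17f and Il23r rose in Treg cells and were not called in TH17 cells. The 3 comparisons of a table share its TH17 libraries.

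The Odc and Dohh differences were compared in 1 edgeR fit of both tables over 12924 genes, a comparison added after the data had been seen. In TH17 cells the difference for Il17a was lower in the Odc table by log2 4.63 (-4.63, SE 0.64, adjusted p = 8.61e-07). Il1r1 (-1.59, SE 0.49, adjusted p = 0.014) and Il23r (-1.44, SE 0.53, adjusted p = 0.0408) also differed in that direction, and Ahr in the other (1.19, SE 0.41, adjusted p = 0.027). Il22 (-2.52, adjusted p = 0.17), Il17f (-1.11, adjusted p = 0.141) and Rora (-0.60, adjusted p = 0.312) were not called. In TH2 cells Il17a (-6.01, adjusted p = 3.18e-06), Il17f (-5.50, adjusted p = 2.84e-06), Il23r (-3.18, adjusted p = 0.00174), Il22 (-2.99, adjusted p = 0.0151) and Rora (-1.86, adjusted p = 0.00708) differed, all lower in the Odc table. In Treg cells Il17f differed by -3.36 (adjusted p = 0.000503) and Il17a by -4.82 (adjusted p = 0.043). Il23r also passed there (-4.19, adjusted p = 0.014), a fitted value that rests on 1 count in the WT Treg libraries of the Dohh table. In TH1 cells Rora by -1.19 (adjusted p = 0.0443) and Il1r1 by -1.55 (adjusted p = 0.0426) differed. Since the tables were counted separately, a gene counted differently in them enters each difference only through the contrast within its own table.

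The balance of the paired cytokines in TH17 cells was read as the ratio of Il17a to Il17f counts within a library, which needs no scaling between libraries. It was 0.234, 0.187, 0.287 and 0.227 in WT libraries of the Odc table and 0.168, 0.0893, 0.163 and 0.129 in the Odc-/- libraries. Each Odc-/- library was below each WT library (mean log2 ratio -2.91 ± 0.42, SD, n = 4, against -2.11 ± 0.25, n = 4; difference -0.79, two-sided exact permutation p = 0.0286, the smallest that 4 against 4 allows). In the Dohh table the ratio was 0.174, 0.113 and 0.113 in WT and 1.10, 0.786 and 0.787 in Dohh-/- libraries. Here Il17a reached about the count of Il17f in all 3 KO libraries (-0.19 ± 0.28, n = 3, against -2.94 ± 0.36, n = 3; difference 2.75, two-sided exact permutation p = 0.1, the smallest that 3 against 3 allows).

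**Figure D4:**
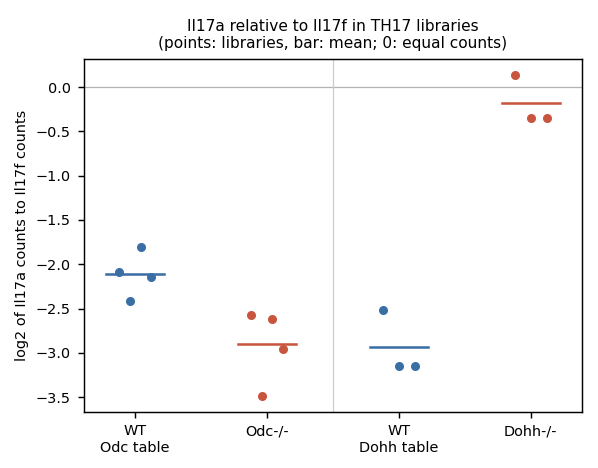
Log2 of the ratio of Il17a to Il17f counts in each TH17 library, for WT (blue) and KO libraries (red) of both tables, with a bar at the group mean and a line at 0, where the counts are equal. The Odc-/- libraries (ratios of 0.0893 to 0.168) lie below WT and the Dohh-/- libraries (0.786 to 1.10) above WT.

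γδ T cell genes were higher in KO than in WT libraries of every subset. The sum of the 8 markers in TH17 libraries was 321 to 642 CPM in Odc-/- and 25.7 to 73.9 CPM in WT, and 952 to 1183 CPM in Dohh-/- and 45.1 to 68.2 CPM in WT, with no marker at or under 3 summed counts in these groups. Trdc, the constant region of the δ chain, was at 147 to 254 CPM against 13.1 to 28.9 CPM (log2 3.28) and at 427 to 575 CPM against 21.6 to 32.9 CPM (4.27). In Treg libraries, where Il17a rose in both tables, the sum was 504 to 704 CPM against 17.9 to 41.3 CPM, and 1396 to 1558 CPM against 27.2 to 55.3 CPM. Sox13 and Cd163l1 were at or under 3 counts in WT Treg libraries of the Odc table and Cd163l1 in those of the Dohh table. In TH1 libraries the sum was 162 to 372 CPM against 23.0 to 63.0 CPM, and 761 to 1107 CPM against 45.3 to 50.5 CPM. In TH2 libraries it was 142 to 155 CPM against 16.1 to 35.0 CPM, and 742 to 848 CPM against 39.1 to 63.7 CPM. Beside these higher γδ sums, Il17a and Il22 were called higher in every Dohh-/- subset, and Il22 also in Odc-/- TH17 and TH1 libraries. Il17a and Il17f were called lower in Odc-/- TH2 libraries, and Il17a, Il23r, Il1r1 and Rora in Odc-/- TH17 libraries. The part of γδ T cells in the results was not tested.

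**Figure D5:**
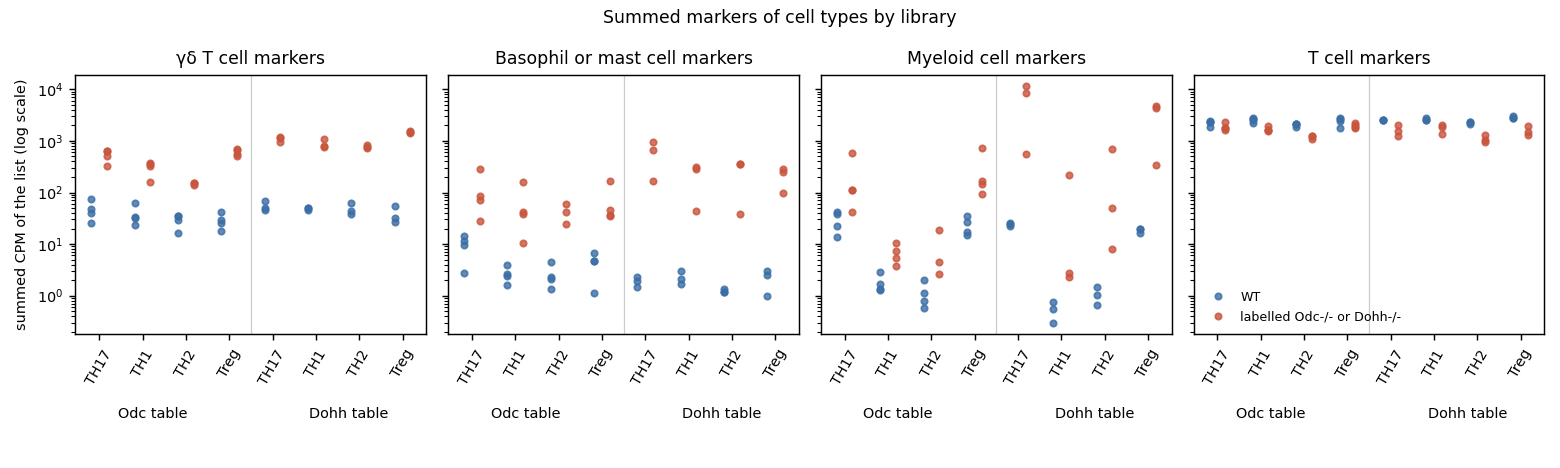
Summed level of the γδ T cell, basophil and mast cell, myeloid and T cell marker genes in each library, in CPM on a log axis, by subset and table, with WT in blue and KO in red. KO libraries lie above WT libraries for the γδ sum in every subset (TH17 321 to 642 CPM against 25.7 to 73.9 CPM in the Odc table).

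Basophil and mast cell genes summed to 27.5 to 284 CPM in Odc-/- TH17 libraries against 2.81 to 14.6 CPM in WT, and to 167 to 961 CPM in Dohh-/- against 1.46 to 2.34 CPM, where Ms4a2 was at or under 3 counts. The 6 myeloid genes summed to 42.7 to 573 CPM against 13.7 to 41.3 CPM in TH17 libraries of the Odc table, and in Treg libraries to 92.2 to 745 CPM against 15.0 to 34.4 CPM. In the Dohh table the myeloid sum was 564 to 11463 CPM in KO TH17 libraries against 22.8 to 25.8 CPM in WT, and 339 to 4753 CPM against 16.4 to 19.6 CPM in Treg libraries, with Itgam at or under 3 counts in each of these groups. B cell genes were called higher, 3 of 3, in Odc-/- TH1, TH2 and Treg libraries. The 6 genes of innate-like lymphocytes summed to 167 to 289 CPM in Dohh-/- TH17 libraries against 75.4 to 85.2 CPM in WT (3 of 4 tested called higher), with Ncr1 and Klrb1b at or under 3 counts in both groups, and to 80.7 to 111 CPM against 74.6 to 111 CPM in Odc-/- TH17 libraries (3 of 6 higher, 1 lower). The CD8 T cell genes Cd8a and Cd8b1 summed in Treg libraries to 144 to 219 CPM against 16.2 to 41.3 CPM (Odc-/-) and 173 to 338 CPM against 20.7 to 26.8 CPM (Dohh-/-), with 1 of 2 called higher in each. In TH17 libraries the CD8 sums were 35.7 to 68.1 CPM against 17.7 to 40.0 CPM and 87.6 to 151 CPM against 22.7 to 26.2 CPM. The part of these cell types in the differences of the 7 genes was not tested.

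The other genes of the pathway were counted by list in the same tests. Of 12 receptors and signalling genes upstream of the program, 0 rose and 1 fell in Odc-/- TH17 cells (list median log2 0.01) and 1 rose and 5 fell in Dohh-/- TH17 cells (-0.76). Over all genes, 8.35% rose and 7.21% fell in Odc-/- TH17 cells, and 17.3% rose and 14.1% fell in Dohh-/- TH17 cells. Il6ra, the receptor that the added IL-6 binds, fell in all 4 subsets of both tables. In TH17 libraries it was at 58.3 to 86.5 CPM against 107 to 179 CPM (Odc-/-, log2 -1.03, adjusted p = 0.000132) and at 8.11 to 17 CPM against 84.2 to 95.1 CPM (Dohh-/-, -2.82, adjusted p = 1.72e-06). Smad3, which carries the TGF-β signal, fell in all 4 Dohh-/- subsets, in TH17 from 94.9 to 120 CPM in WT libraries to 9.66 to 25.2 CPM (-2.63, adjusted p = 7.63e-06). Of 9 transcription factors that act with the members, 3 fell in Odc-/- and 4 in Dohh-/- TH17 cells and none rose (medians -0.46 and -0.83). The largest differences were those of Hif1a, a regulator of glycolysis, at -1.60 in Odc-/- (adjusted p = 1.79e-06), and Maf, a factor for Il10 and Il21, at -2.96 in Dohh-/- cells (adjusted p = 1.36e-06).

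Another list held 8 regulators of the program, most of which restrain it (Ets1, Gfi1, Foxp3, Egr2, Stat5a, Stat5b, Il2 and Ikzf3). Of these, 2 rose and 1 fell in Odc-/- TH17 cells, beside 8.35% and 7.21% of all genes (list median -0.29). In Dohh-/- TH17 cells 1 rose and 4 fell, beside 17.3% and 14.1% of all genes (-1.23). Ets1 fell in all 8 comparisons (TH17 log2 -1.27, adjusted p = 1.49e-05, and -1.5, adjusted p = 0.00221), and Stat5b, which relays IL-2, in all 4 of the Dohh table (TH17 -1.75, adjusted p = 1.27e-06). Foxp3, the Treg factor, differed in direction between the tables. It was at 44.1 to 165 CPM against 13.1 to 25.9 CPM in Odc-/- TH17 cells (2.62, adjusted p = 1.31e-06) and at 4.38 to 18.1 CPM against 36.0 to 50 CPM in Dohh-/- TH17 cells (-2.14, adjusted p = 0.00106). Egr2 led the list in Dohh-/- TH17 cells (2.17, adjusted p = 0.00221).

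Of 12 other products of TH17 cells, 4 rose and 1 fell in Odc-/- TH17 cells, beside 8.35% and 7.21% of all genes (list median 0.58). In Dohh-/- TH17 cells 4 rose and 4 fell, beside 17.3% and 14.1% of all genes (0.56). Il10, an anti-inflammatory cytokine, was at 178 to 305 CPM against 35.2 to 44.3 CPM in Odc-/- TH17 cells (log2 2.59, adjusted p = 2.24e-07) and was higher in all 4 Dohh-/- subsets (TH17 1.07, adjusted p = 0.00658). Ctsh, a lysosomal protease, was higher in all 4 Odc-/- subsets (TH17 1.75, adjusted p = 0.00507) and led the list in Dohh-/- TH17 cells (4.63, adjusted p = 0.00161).

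Of 5 genes that AHR is known to activate, 4 rose in Odc-/- TH17 and in Odc-/- Treg cells, whereas 1 rose and 2 fell in Odc-/- TH1 and 0 rose and 2 fell in Odc-/- TH2 cells. In Dohh-/- cells 1 rose and 2 fell in TH17, 2 rose and 2 fell in TH1, 3 rose and 1 fell in TH2, and 2 rose in Treg cells. Over all genes, 8.35% to 13.9% rose and 7.21% to 13.6% fell in the 4 Odc-/- comparisons. For Dohh-/- these shares were 14.3% to 17.5% and 11.6% to 15.2%. Cyp1a1, an enzyme that metabolises AHR ligands, was at 6.77 to 13.7 CPM against 0.819 to 1.16 CPM in Odc-/- TH17 cells (log2 3.15, adjusted p = 2.61e-06), where Ahr was not called, and fell in Dohh-/- TH17 cells (-2.54, adjusted p = 0.00357), where Ahr fell. It was picked from the list after its values had been seen. Cyp1b1 had the largest difference in Odc-/- TH17 cells (3.68, adjusted p = 9.73e-06). Nqo1 was higher in all 4 Dohh-/- subsets (TH17 4.09, adjusted p = 1.67e-05). Of the IL-17 family and its receptors, 4 of 9 genes were tested for Odc and 5 for Dohh, and none was called in TH17 cells. The largest values there were -0.83 for Il17re (Odc-/-, adjusted p = 0.0402) and -0.86 for Il17ra (Dohh-/-, adjusted p = 8.79e-06), the receptor chain for IL-17A and IL-17F, both short of 2-fold.

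The genes near the members on the chromosome were listed as well. Of 9 tested, 2 rose and 2 fell in Odc-/- TH17 cells, beside 8.35% and 7.21% of all genes. In Dohh-/- TH17 cells 6 rose and 1 fell, beside 17.3% and 14.1% of all genes. Ifng, which lies beyond Iltifb from Il22, rose in all 8 comparisons (TH17 log2 3.96, adjusted p = 1.66e-06, and 6.37, adjusted p = 3.51e-08), as did Il1rl1, the IL-33 receptor in the cluster of Il1r1 (2.54, adjusted p = 0.00031, and 7.32, adjusted p = 4.22e-07). Il1r1 itself fell or was not called in TH17 cells of the tables, as given above. Il18rap in the same cluster (TH17 2.79, adjusted p = 5.51e-05) and Mcm3, on the far side of Il17f from Il17a (1.04, adjusted p = 0.000368), were higher in all 4 Dohh-/- subsets.

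The genes most like each member were found by the mean of the 2 tables' Pearson correlations of log2 CPM over 31 and 24 libraries, among 12924 genes, as a description across libraries that share subset and genotype. Il17a was most like Kctd12 (0.87), Il17f (0.85) and Lrrc25 (0.83), and Il17f most like Tox2 (0.88), Il17a (0.85) and Abhd15 (0.84). The correlation of Il17a with Il17f was 0.96 (Odc table) and 0.75 (Dohh table). Il22 was most like Srxn1 (0.86), Adam8 (0.86) and Pqlc1 (0.85), and no member was among its 3. Il23r was most like Mctp2 (0.88), Ltb4r1 (0.88) and Podnl1 (0.87), and Il1r1 like Ltb4r1 (0.80), Fam217b (0.78) and Il17re (0.77), so that both receptors shared Ltb4r1, a leukotriene receptor. Rora was most like Spata13 (0.88), Prr29 (0.87) and Syt11 (0.86), and Ahr like Tox2 (0.85), Thap12 (0.83) and Lbp (0.83).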

How the data were processed

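RNA-seq counts per gene were deposited by the authors as 2 tables of whole-number counts, 31 libraries for Odc and 24 for Dohh. The authors used stranded poly(A) libraries, and the submitters' processing notes name STAR, featureCounts, deepTools, DESeq2 and mm10. Versions, strand setting and annotation are not given in the sources used here. Of 47937 gene IDs, 47224 were matched to symbols with GENCODE M21. Odc-/- TH2 replicate 1 is not analysed here.

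Each table was fitted on its own with edgeR 4.0.16 (quasi-likelihood test, TMM scaling, filterByExpr, R 4.3.3), with all 8 groups of subset and genotype in 1 fit. A gene was called at more than 2-fold and Benjamini-Hochberg adjusted p below 0.05 over all genes tested, and an interaction at adjusted p below 0.05. CPM are computed from these counts with TMM library sizes. Standard errors are those of the log2 fold change, and ratios of low counts have exact 95% intervals. Intervals cover counting error only. A ratio to the floor sets 3 counts for the WT group and takes the KO counts as exact. The ratio of Il17a to Il17f used an added count of 0.5 in the test. Replicates are cultures that the labels number, and the p-values measure the spread between them.

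The named genes are the 7 members in every comparison, and of each pathway list the genes called in 1 direction in all 4 subsets of a table, the gene with the largest change in TH17 cells, and neighbours of a member, plus the 3 genes most like each member. Cyp1a1 is named outside this rule and was chosen after its values were seen. The members and lists were chosen with earlier results of these data known. The fits were tested on simulated data with known changes, with libraries drawn independently of each other. Of 200 changes between KO and WT, 169 were recovered in the Odc and 143 in the Dohh table, with 3 and 6 false calls. Of 200 interactions, 147 and 112 were recovered, with 10 and 4 false calls. A difference that was not called can thus be a missed one. Same-numbered WT libraries of TH17 and the other subsets deviated together in the Odc table (correlations 0.206 to 0.576) and, for TH1 and TH2, in the Dohh table (0.101 to 0.286), and so did the Odc-/- libraries (0.142 to 0.501) and, for TH2 and Treg, the Dohh-/- libraries (0.148 to 0.644). Same-numbered KO and WT libraries of a subset did so less, with medians of 0.00656 (Odc table) and -0.0117 (Dohh table). Between subsets of a genotype the medians were 0.252 and 0.212. The KO and WT correlation was over 0.1 in 7 of 15 pairs of the Odc table (at most 0.196) and 1 of 12 of the Dohh table (0.136). Alternatives were RLE scaling, DESeq2 1.42.0, only the groups compared, a replicate block, no filter, an adjusted p below 0.01, an adjusted p below 0.05 with no fold threshold, a minimum mean count of 50 and leaving out each library. The block within genotype and the joint fit of both tables were added after seeing the data. Promoter windows are from RefSeq, GRCm38.p6.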

Additional observations from a re-analysis of the deposited data

Results flagged for a closer look

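A library far from the others of its group by Dixon's criterion (0.829 for 4 libraries) was found in 6 of 49 sets of gene and group tested, and chance gives about 1 in 20. Only the groups of 4 libraries were tested, all of which belong to the Odc table, since the groups of 3 are too small. These were Il22 in TH2 WT replicate 4 (26.9 CPM), Il22 in Treg WT replicate 2 (0.206 CPM, the only one of its group above 0), Il22 in Treg Odc-/- replicate 4 (0.13 CPM), Il17f in Treg WT replicate 4 (6.52 CPM), Il17f in Treg Odc-/- replicate 1 (7.52 CPM) and Il23r in TH1 Odc-/- replicate 3 (5.48 CPM). The WT libraries numbered 4 of the Odc table thus held the extreme value for Il22 in TH2 and for Il17f in Treg cells.

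The KO difference of 12 gene and subset pairs was unlike in TH17 and another subset, by the interaction in edgeR. In the Odc table Il17a differed by log2 -3.17 from TH1 (adjusted p = 0.0187) and by -4.66 from Treg (0.00281), Il17f by -2.87 from TH1 (0.045) and by 2.94 from TH2 (0.00524), Ahr by 1.16 from TH2 (0.005) and by -2.32 from Treg (2.6e-06), and Il1r1 by -1.58 from TH2 (0.0147). In the Dohh table Il23r differed by -3.43 from TH2 (adjusted p = 0.00117) and by -3.64 from Treg (0.0345), Il17a by -4.86 from Treg (0.00216), Il17f by -4.14 from Treg (0.000329) and Ahr by -2.90 from Treg (0.00406). Ahr and Il17a therefore each differed between TH17 and Treg cells in the same direction in both tables, which have separate controls.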

How the results depend on the processing

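Of 1121 values of the 7 genes under other settings, 1076 kept their direction and their side of the threshold, 12 no longer passed, 23 newly passed and 10 changed sign. Of 1260 values with a library left out, 1159 kept both, 40 no longer passed, 22 newly passed and 39 changed sign. With no fold threshold, Il17f (-0.95) and Ahr (-0.51) in Odc-/- and Rora (-0.96) in Dohh-/- TH17 cells also passed. Where the cause of a change is not given, the cause was not tested. The number of genes with an interaction against TH1 in the Odc table went from 2 to 0 without a filter on low counts and at an adjusted p below 0.01, and 0 to 2 with a library left out (0 without TH1 Odc-/- replicate 1). That against TH1 in the Dohh table went from 0 to 1 with DESeq2 and 0 to 1 with a library left out (1 without TH17 WT replicate 3), and that against TH2 from 1 to 0 at a mean count of at least 50, where fewer genes are tested, and to 2 with only the groups compared. WT TH17 against WT Treg in the Dohh table gave 3 genes instead of 5 at a mean count of at least 50. KO against WT TH1 in the Dohh table gave 2 to 4 genes with a library left out (4 without Dohh-/- replicate 3). With a replicate block the Odc interaction count against TH2 was 5 (also 5 within genotype), and the exact permutation p of the log2 ratio of Il17a to Il17f in the Odc table (-0.79) was 0.125, its smallest possible value. Leaving out a library gave -0.90 to -0.60 for that ratio, each with a p above the threshold in a design too small to pass it.

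Sign changes fell on values that were not called. They were Il23r in Odc-/- TH2 cells (0.0278 with the block, -0.34 to 0.24 with a library left out), Il1r1 in Odc-/- Treg cells (-4.91e-05 with RLE, -0.00677 unfiltered, -0.43 to 0.28), the Rora interaction against TH2 in the Odc table (-0.0019 with RLE, -0.0812 with the block, -0.0394 with the block within genotype, -0.00111 with DESeq2, -0.19 to 0.22) and that of Il17a against TH1 in the Dohh table (0.0276 unfiltered, 0.0521 at a mean count of 50, 0.00681 with the block within genotype, -0.55 to 0.28). With a library left out, KO against WT ranged over 0 for Il22 in TH2 of the Odc table (-0.16 to 2.16), and in the Dohh table for Il17f (-0.70 to 1.13), Rora (-0.64 to 0.19) and Il1r1 (-0.38 to 0.15) in TH1 and Il17f in TH17 (-0.20 to 0.29). Interactions that ranged over 0 were, in the Odc table, Il23r (-0.056 to 0.69) and Il1r1 (-0.075 to 0.94) against TH1, Il17a (-0.27 to 1.42) against TH2, and Il22 (-1.43 to 1.04) and Rora (-0.26 to 0.19) against Treg, and in the Dohh table Il17f (-1.03 to 0.80) and Ahr (-1.16 to 0.34) against TH1 and Il22 (-4.30 to 0.90) against Treg. Il22 in WT TH17 against WT Treg of the Dohh table, with at most 4 counts a group, ranged from -1.76 to 3.5. Depth limits Il17a, Il22, Il23r and Il1r1 in WT Treg cells and Il17f in WT TH1 cells of both tables. It also limits Il22 in WT TH17 cells of the Dohh table. Most of these libraries lie at or near the floor of 3 counts.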
